A study of Homo sapiens with 6 samples.

Results

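Aminoacyl-tRNA synthetases are the enzymes that join each amino acid to its transfer RNA before translation. The genes of 35 of them were found by symbol among the 20729 genes of the deposited count table, 19 for enzymes of the cytosol and 16 for enzymes of mitochondria, whose symbols end in 2. All 35 passed the filter on low counts, as did 15506 genes of the table. The RNA sequenced is described as coming from SW620, an established human colorectal cancer cell line. Cells carried an siRNA against OSBPL3 (siOSBPL3, 3 libraries) or a control siRNA (siNC, 3 libraries), and the single contrast of the design is siOSBPL3 against siNC. OSBPL3 encodes a lipid-binding protein of the OSBP family, and the series title ties it to Hippo-YAP signalling and to the response to MEK inhibition. The sources used here give 1 cell line carrying an siRNA for both groups, and whether both held the same cells was not tested. Dose, time after transfection and the number of siRNAs are not given in the sources used here, nor is it said whether the libraries came from separate cultures. The p-values therefore reflect library-to-library spread, part or all of which may be technical.

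Each synthetase recognises its amino acid and the matching tRNAs, and the enzymes fall into class I and class II by the fold of their catalytic domain. In animal cells several cytosolic enzymes sit in the multisynthetase complex together with scaffold proteins, while a separate, nuclear-encoded set is imported into mitochondria for the translation of respiratory chain subunits. KARS1 and GARS1 each supply both compartments, and mitochondria make glutaminyl-tRNA through an amidotransferase in place of a synthetase of their own. Transcription of many cytosolic synthetase genes is known to rise under the integrated stress response, when the transcription factor ATF4 binds C/EBP-ATF response elements (CARE) in their promoters, and WARS1 is known to be induced by interferon gamma.

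The promoters of the synthetase genes are shown because ATF4 is known to act on this gene family through such elements. RefSeq promoter windows on GRCh38.p14, from 250 bases before to 50 after the start site, matched 30 of the 35 genes, 16 cytosolic and 14 mitochondrial. Only 1 window per gene was searched, and its start site need not be the outermost of the gene. The window of CARS2, on the minus strand, ends at 110706765, and the gene at 110713522. On the plus strand, the FARS2 window begins at 5260757 and the gene at 5249934, and the TARS1 window at 33440715 and the gene at 33440696. The letters TGATGNAAN, searched on both strands, were found in 6 of 16 cytosolic promoters (37.5%) and in 1 of 14 mitochondrial promoters (7.14%), beside 1002 of all 27305 windows (3.67%). The matches are printed 5′ to 3′ on the strand of the gene, with 10 bases on each side and the CARE letters or their reverse complement in capitals.
AARS1: ttttctcgcaGTTGCATCAgccaagttag
CARS1: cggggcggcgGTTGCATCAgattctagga
IARS1: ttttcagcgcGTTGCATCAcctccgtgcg
MARS1: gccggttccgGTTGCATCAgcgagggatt
NARS1: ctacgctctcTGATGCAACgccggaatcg
TARS1: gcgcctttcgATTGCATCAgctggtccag
YARS2: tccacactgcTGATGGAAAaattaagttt
The windows lie at chr16:70289676-70289704, chr11:3057408-3057436, chr9:92293693-92293721 and chr18:57621804-57621832 on the minus strand, and at chr12:57488053-57488081 and chr5:33440956-33440984 on the plus strand. The mitochondrial gene YARS2 has its window at chr12:32756076-32756104 on the minus strand. AARS1, CARS1, IARS1 and MARS1 share the same letters, GTTGCATCA, and NARS1 holds their reverse complement. In CARS1, IARS1, MARS1 and TARS1 the letters lie within 14 bases of the start site, whereas in AARS1 they span positions -188 to -180, counted from the start site as 0. The interferon-stimulated response element (GAAA repeated after any 2 bases, both strands) was found in 1 of 30 promoters, that of EARS2, beside 3.65% of all windows, and this window holds no CARE letters. WARS1 held neither set of letters. A match describes the letters of the window and is not evidence of binding.

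The AARS1 promoter is printed in full because AARS1 had the largest fall of the 35 transcripts. These are the 250 bases before its start, chr16:70289507-70289756, minus strand, with the CARE letters in capitals.
AARS1 promoter: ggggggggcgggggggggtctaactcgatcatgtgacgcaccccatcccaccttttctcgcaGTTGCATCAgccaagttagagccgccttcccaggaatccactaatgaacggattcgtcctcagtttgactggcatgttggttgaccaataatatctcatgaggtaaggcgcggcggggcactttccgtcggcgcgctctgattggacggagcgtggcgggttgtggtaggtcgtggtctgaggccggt
HARS1 and HARS2, the cytosolic and mitochondrial histidyl enzymes, lie head to head, and the stretch between their starts is shown because transcription of the 2 genes leaves from its opposite ends. It spans chr5:140691371-140691454 and is printed on the strand of HARS2.
HARS1 to HARS2: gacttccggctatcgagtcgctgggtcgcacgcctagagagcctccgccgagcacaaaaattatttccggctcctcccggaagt

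Library totals were 34569895, 36437505 and 39701340 counts in siOSBPL3 and 33490163, 33667128 and 30040020 counts in siNC. OSBPL3 (chromosome 7, 24796537 to 24981845, GRCh38.p14) stood at 40.2, 12.2 and 15.1 CPM in siOSBPL3, against 179, 174 and 175 CPM in siNC (CPM, counts scaled to a common library size by TMM), and its log2 fold change was -2.97 ± 0.48 (SE, adjusted p = 0.0016, edgeR quasi-likelihood test with Benjamini-Hochberg adjustment). Without siOSBPL3 replicate 1 it was -3.68, and -2.23 with offsets that remove, in each library, the smooth trend of the counts with GC content and transcript length. No siOSBPL3 library reached the level of siNC. Replicate 1 of siOSBPL3 kept the most OSBPL3 and stood apart from the other siOSBPL3 libraries, with a chi-square per degree of freedom of 41.8 and 48.9 against them, while replicates 2 and 3 differed by 18.4 and siNC libraries by 2.94 to 3.52. Of all genes tested, 80.2% passed an adjusted p of 0.05, 40.4% higher and 39.8% lower in siOSBPL3. Summed colorectal epithelium markers (10 of 10 in the table) ran from 4885 to 6015 CPM in siOSBPL3 and from 7102 to 7179 CPM in siNC, with EPCAM at 720.4, 523 and 616 CPM in siOSBPL3 and 518, 515 and 515 CPM in siNC. CDX2, a transcription factor of intestinal epithelium, stood at 53.4, 72.7 and 64.6 CPM in siOSBPL3 and 1.46, 1.30 and 0.708 CPM in siNC. Of the 9 colorectal epithelium markers tested, 4 rose (44.4%), 3 fell (33.3%) and 2 were not called. The 3 that fell were VIL1 (-2.95 ± 0.083), KRT18 (-0.95 ± 0.10) and KRT8 (-0.33 ± 0.085). VIL1 stood at 64.9, 62.8 and 60.1 CPM in siOSBPL3 and 483, 485 and 478 CPM in siNC. Summed fibroblast and mesenchymal markers (6 of 7 in the table) ran from 4.10 to 8.56 CPM in siOSBPL3 and from 758 to 772 CPM in siNC. Most of the siNC sum was VIM, at 684, 699 and 699.6 CPM, against 2.60, 1.42 and 0.910 CPM of VIM in siOSBPL3. LUM had 0 counts in siOSBPL3 and 5785 in siNC, whereas COL3A1 had 1 count in siOSBPL3 and 0 in siNC. Leukocyte markers (6 of 8) summed to 11.7 to 17.4 CPM in siOSBPL3 and 20.4 to 22.9 CPM in siNC, and endothelial markers (2 of 4) to 0.219 to 0.803 CPM in siOSBPL3 and 1.39 to 2.25 CPM in siNC. The 4 leukocyte markers tested went both ways, 50% each. CD8A (2.80 ± 0.33) and CD14 (3.43 ± 0.40) rose, and CD68 (-1.70 ± 0.19) and LYZ (-3.39 ± 0.81) fell. CD14 had 12, 10 and 5 counts in siNC, and LYZ 19, 0 and 1 in siOSBPL3. KRT20 and CEACAM5, markers of colorectal epithelium, stayed under 0.65 CPM in all 6 libraries. The part of these marker differences in the results was not tested, and whether both groups held the same cells was not tested. In bulk RNA, fewer cells of a type and less RNA per cell cannot be told apart.

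Transcripts of the cytosolic synthetases were mostly lower in siOSBPL3. Of 19 genes, 10 fell, 4 rose and 5 did not pass the test, with a median log2 fold change of -0.42, beside a median of -0.00089 over all genes. The share that fell, 52.6%, stands beside the 39.8% of all genes, and the share that rose, 21.1%, beside 40.4%. Of all 35 members 17 fell, 10 rose and 8 did not pass. At least 2-fold changes were found for 6 members lower and 2 higher, where 24.1% of all genes were lower and 24.8% higher by that measure. The groups did not overlap for 28 of the 35 members, 17 lower and 11 higher, beside 83.0% of all genes (41.5% lower and 41.5% higher), a share close to that of the members.

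**Figure D1:**
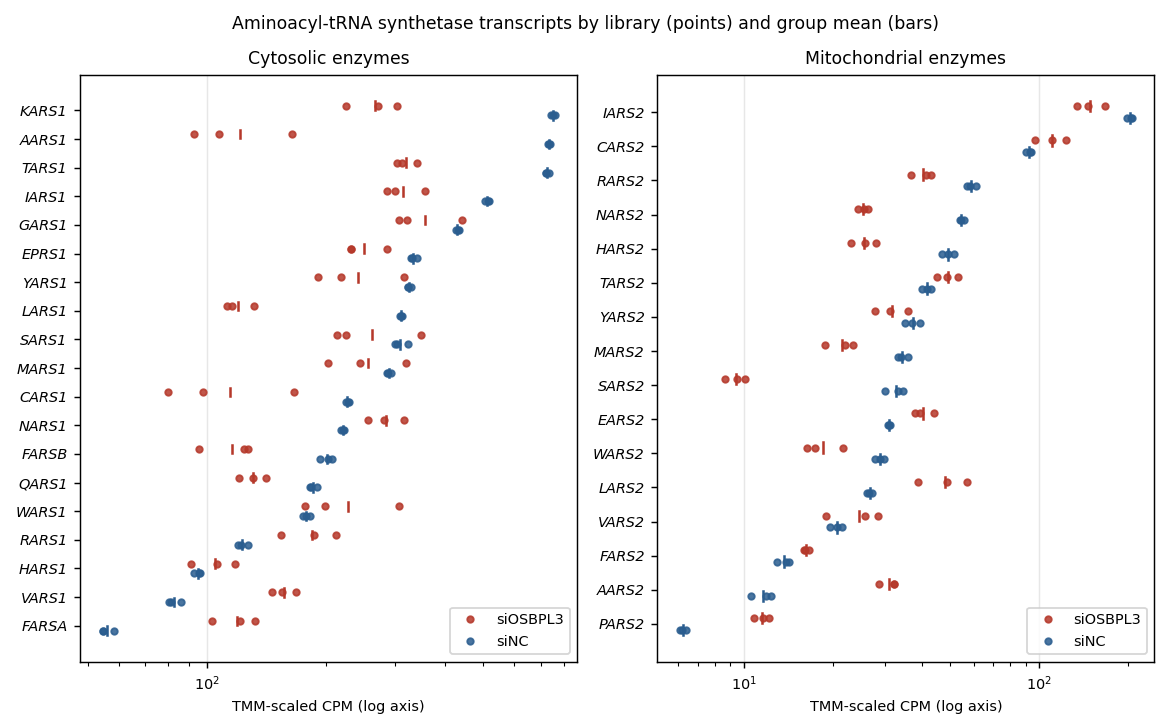
TMM-scaled CPM (log axis) of each cytosolic (left) and mitochondrial (right) synthetase transcript. Points are the 3 siOSBPL3 libraries (red) and the 3 siNC libraries (blue), and the short bars are group means. For AARS1, KARS1 and TARS1 every siOSBPL3 point lies far to the left of every siNC point, and the siOSBPL3 points spread more widely than the siNC points.

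AARS1, the alanyl-tRNA synthetase, fell most. It stood at 165, 107 and 92.8 CPM in siOSBPL3, against 732, 738 and 734 CPM in siNC, 6.05-fold lower, with a log2 fold change of -2.60 ± 0.18 (adjusted p = 8.55e-08, edgeR). Even the highest siOSBPL3 library was far below the lowest siNC library, and 8.19% of all genes had a log2 fold change as low. Without siOSBPL3 replicate 1, the highest of its group, the log2 fold change was -2.87. KARS1, the lysyl enzyme of both compartments, stood at 226, 303 and 272 CPM in siOSBPL3 and at 759, 753 and 745 CPM in siNC (-1.50 ± 0.10, adjusted p = 5.35e-08, edgeR). Here replicate 1 was the lowest siOSBPL3 library. TARS1, the threonyl enzyme, stood at 341, 304 and 312 CPM in siOSBPL3 and at 736, 720.1 and 724 CPM in siNC (-1.19 ± 0.078, adjusted p = 3.45e-08, edgeR). For TARS1 the siOSBPL3 libraries lay close together and the groups were again far apart, with a log2 fold change of -0.76 under the offsets.

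Enzymes of the multisynthetase complex fell in 5 of 7 cases, beside 39.8% of all genes, with a median of -0.50. Besides KARS1, LARS1 fell, the leucyl enzyme that also takes part in leucine sensing for mTORC1. Its level was 132, 113 and 116 CPM in siOSBPL3 and 312, 311 and 308 CPM in siNC (-1.37 ± 0.087, adjusted p = 2.61e-08, edgeR), and the groups were far apart. IARS1, the isoleucyl enzyme, stood at 356, 299 and 286 CPM in siOSBPL3 and at 514, 519 and 508 CPM in siNC (-0.71 ± 0.093). QARS1, the only glutaminyl enzyme of human cells, stood at 141, 131 and 121 CPM in siOSBPL3 and at 184, 190.3 and 182 CPM in siNC (-0.50 ± 0.085). In both, every siOSBPL3 library was below every siNC library. EPRS1, which carries the glutamyl and prolyl activities in 1 chain, stood at 285, 232 and 232 CPM in siOSBPL3 and at 341, 329.9 and 329.6 CPM in siNC (-0.42 ± 0.095). That fall did not outlast the offsets for GC content and length, with which the log2 fold change was 0.10 (adjusted p = 0.352, edgeR). With the same offsets IARS1 stood at -0.25 (adjusted p = 0.0363), LARS1 at -0.79 and QARS1 at -0.93, all called lower by edgeR. RARS1, the arginyl enzyme, went the other way, at 155, 187 and 213 CPM in siOSBPL3 and 127, 120.3 and 122 CPM in siNC (0.59 ± 0.11, adjusted p = 0.000343, edgeR). MARS1, the methionyl enzyme, did not pass the test: it stood at 319, 245 and 203 CPM in siOSBPL3, on both sides of the 287, 292 and 287 CPM of siNC (-0.18 ± 0.13, adjusted p = 0.244, edgeR). Of the 3 scaffold proteins of the complex, AIMP2 rose (1.10 ± 0.097) and AIMP1 rose (0.28 ± 0.083, adjusted p = 0.0503 when siNC replicate 3 was left out, edgeR), while EEF1E1 was not called (-0.18 ± 0.11). The offsets brought AIMP2 to 0.64 and AIMP1 to 0.86.

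Of the 12 cytosolic enzymes outside the complex, 5 fell (41.7%), 3 rose (25%) and 4 did not pass (median -0.25). Of all genes 39.8% fell and 40.4% rose. The genes of the phenylalanyl enzyme, an assembly of alpha and beta subunits, moved in opposite directions. FARSA, the alpha subunit, stood at 103, 133 and 122 CPM in siOSBPL3 and at 54.6, 58.2 and 54.6 CPM in siNC, 2.13-fold higher (1.09 ± 0.099, adjusted p = 6.15e-07, edgeR). FARSB, the beta subunit, stood at 95.6, 127 and 124 CPM in siOSBPL3 and at 202, 208 and 194 CPM in siNC (-0.80 ± 0.11, adjusted p = 2.4e-05, edgeR). Per kilobase of the longest transcript FARSA stood at 57.9 ± 7.33 CPM per kb and FARSB at 34.3 ± 5.18 in siOSBPL3 (SD, n = 3), against 27.1 ± 0.994 for FARSA and 59.7 ± 2.14 for FARSB in siNC, so FARSA was the higher of the subunit transcripts in siOSBPL3 and FARSB in siNC. Their transcripts also differ in base composition, 60.3% GC for FARSA and 41.6% for FARSB, and with the offsets for GC content and length both moved toward 0, FARSA to 0.24 and FARSB to -0.38. These changes together are smaller than the gap between the subunits in siNC, so the offsets leave no change of order. VARS1, the valyl enzyme, stood at 155, 169 and 146 CPM in siOSBPL3 and at 80.2, 86.2 and 81.3 CPM in siNC (0.92 ± 0.085), with GC of 62.6%, and the offsets brought its log2 fold change to 0.19. NARS1, the asparaginyl enzyme, stood at 315, 257 and 282 CPM in siOSBPL3 and at 222, 223 and 219 CPM in siNC (0.36 ± 0.091), and this rise was 0.62 with the offsets.

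The cysteinyl enzyme gene CARS1 fell, at 167, 98.1 and 79.9 CPM in siOSBPL3 and 225, 227 and 229 CPM in siNC (-0.98 ± 0.23, adjusted p = 0.00331, edgeR). The siNC libraries lay close together, whereas siOSBPL3 replicate 1 stood far above replicate 3, and without replicate 1 the log2 fold change was -1.35. With no filter on low counts its adjusted p was 0.0506. YARS1, the tyrosyl enzyme, stood at 315, 218 and 192 CPM in siOSBPL3 and at 329, 323 and 324 CPM in siNC (-0.43 ± 0.15, adjusted p = 0.0182, edgeR), a call lost without siOSBPL3 replicate 2 (adjusted p = 0.1), siOSBPL3 replicate 3 (0.0817) or any single siNC library (0.0552 to 0.0625). With the offsets YARS1 stood at -0.84. GARS1, the glycyl enzyme of both compartments, stood at 444, 322 and 306 CPM in siOSBPL3 and at 435, 431 and 428 CPM in siNC (-0.27 ± 0.12, adjusted p = 0.0601, edgeR). Replicate 1 was above all siNC libraries and the other siOSBPL3 libraries below them. SARS1, the seryl enzyme, had the same order, at 349, 226 and 214 CPM in siOSBPL3 and 322, 304 and 300.4 CPM in siNC (-0.23 ± 0.15, adjusted p = 0.181, edgeR). WARS1, the tryptophanyl enzyme, stood at 307, 199 and 177 CPM in siOSBPL3 and at 183, 175 and 178 CPM in siNC (0.35 ± 0.16, adjusted p = 0.0684, edgeR), so that replicate 1 lay far above siNC and replicate 3 within it. HARS1 stood at 91.4, 118 and 106 CPM in siOSBPL3, which overlapped the 95.7, 92.9 and 96.2 CPM of siNC (0.15 ± 0.096, adjusted p = 0.17, edgeR).

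The mitochondrial synthetases went both ways. Of 16 genes, 7 fell, 6 rose and 3 did not pass, and the median log2 fold change was 0.00058, next to that of all genes. The share that fell, 43.8%, stands beside 39.8% of all genes, and the share that rose, 37.5%, beside 40.4%. Groups did not overlap for 14 of them, 7 lower and 7 higher, beside 83.0% of all genes (41.5% lower and 41.5% higher). AARS2, the mitochondrial alanyl enzyme, rose most among the 35. It stood at 32.2, 32.4 and 28.8 CPM in siOSBPL3 and at 12.4, 10.6 and 11.9 CPM in siNC, 2.68-fold higher (1.42 ± 0.11, adjusted p = 1.52e-07, edgeR), and the groups were far apart. LARS2, the mitochondrial leucyl enzyme, stood at 38.8, 57.2 and 48.6 CPM in siOSBPL3 and at 27.2, 26.7 and 26.2 CPM in siNC (0.85 ± 0.13, adjusted p = 5.62e-05, edgeR). PARS2, the mitochondrial prolyl enzyme, stood at 10.9, 12.2 and 11.6 CPM in siOSBPL3 and at 6.09, 6.21 and 6.37 CPM in siNC (0.89 ± 0.14, adjusted p = 7.37e-05, edgeR). EARS2, the mitochondrial glutamyl enzyme, rose by less (0.38 ± 0.092). These 4 rises held with the offsets for GC content and length, with AARS2 at 0.86, LARS2 at 0.91, PARS2 at 0.48 and EARS2 at 0.32. The smaller rises of CARS2 (0.26 ± 0.094, adjusted p = 0.0251) and TARS2 (0.23 ± 0.090, adjusted p = 0.0305), the mitochondrial cysteinyl and threonyl enzymes, turned under the offsets to -0.38 for CARS2 and -0.17 for TARS2. The call of CARS2 was also lost without siOSBPL3 replicate 2 or any siNC library (adjusted p from 0.0562 to 0.0855), and that of TARS2 without siOSBPL3 replicate 1 or any siNC library (0.0539 to 0.12).

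SARS2, the mitochondrial seryl enzyme, had the largest fall of the mitochondrial set. It stood at 10.1, 9.46 and 8.62 CPM in siOSBPL3 and at 30.0, 33.4 and 34.7 CPM in siNC, 3.48-fold lower (-1.80 ± 0.11, adjusted p = 2.22e-08, edgeR), and -2.72 with the offsets. Whether reads were counted by strand is not given in the sources used here. Of the exonic bases of SARS2, 10.8% are shared with MRPS12 on the opposite strand, a mitochondrial ribosomal protein gene that rose (1.44 ± 0.12), while 46.2% lie in another annotated gene on the same strand, so the level of SARS2 is uncertain to that extent. NARS2, the asparaginyl enzyme, stood at 25.5, 24.4 and 26.4 CPM in siOSBPL3 and at 54.3, 55.6 and 53.9 CPM in siNC (-1.10 ± 0.085, adjusted p = 1.37e-07, edgeR). HARS2 stood at 25.7, 23.1 and 28.1 CPM in siOSBPL3 and at 51.5, 46.8 and 49.2 CPM in siNC (-0.94 ± 0.099, adjusted p = 2.36e-06, edgeR). Its groups were well apart, while those of HARS1, 84 bases away across the promoter stretch printed above, overlapped. Annotated exons of the HARS genes share 437 bases on opposite strands, 11.7% of the exonic bases of HARS2. On the opposite strand as well, MARS1 shares 5.1% with DDIT3, KARS1 4.3% with TERF2IP and WARS1 4.5% with WDR25. The methionyl, tryptophanyl, arginyl and isoleucyl enzymes fell by less, MARS2 at -0.68 ± 0.11, WARS2 at -0.64 ± 0.12, RARS2 at -0.54 ± 0.088 and IARS2 at -0.44 ± 0.092, and the last was not called with the offsets (-0.11, adjusted p = 0.161, edgeR). WARS2 moved to -0.33 and RARS2 to -0.34 with them, and MARS2 stayed at -0.66.

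Of the 3 mitochondrial genes that did not pass, FARS2, the phenylalanyl enzyme, had groups that did not overlap, with 16.0, 16.1 and 16.6 CPM in siOSBPL3 and 14.2, 13.9 and 12.9 CPM in siNC (0.25 ± 0.11, adjusted p = 0.0566, edgeR). VARS2 stood at 28.6, 25.8 and 19.0 CPM in siOSBPL3 and at 20.8, 21.6 and 19.6 CPM in siNC (0.25 ± 0.14), and YARS2, the mitochondrial gene with CARE letters, at 27.9, 31.2 and 36.0 CPM in siOSBPL3 and 39.6, 37.1 and 35.2 CPM in siNC (-0.23 ± 0.11). For VARS2 siOSBPL3 libraries lay on both sides of siNC, and for YARS2 replicate 3 of siOSBPL3 lay within the range of siNC. VARS2 shares 22.0% of its exonic bases with GTF2H4 on the same strand, which rose (0.50 ± 0.11).

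**Figure D2:**
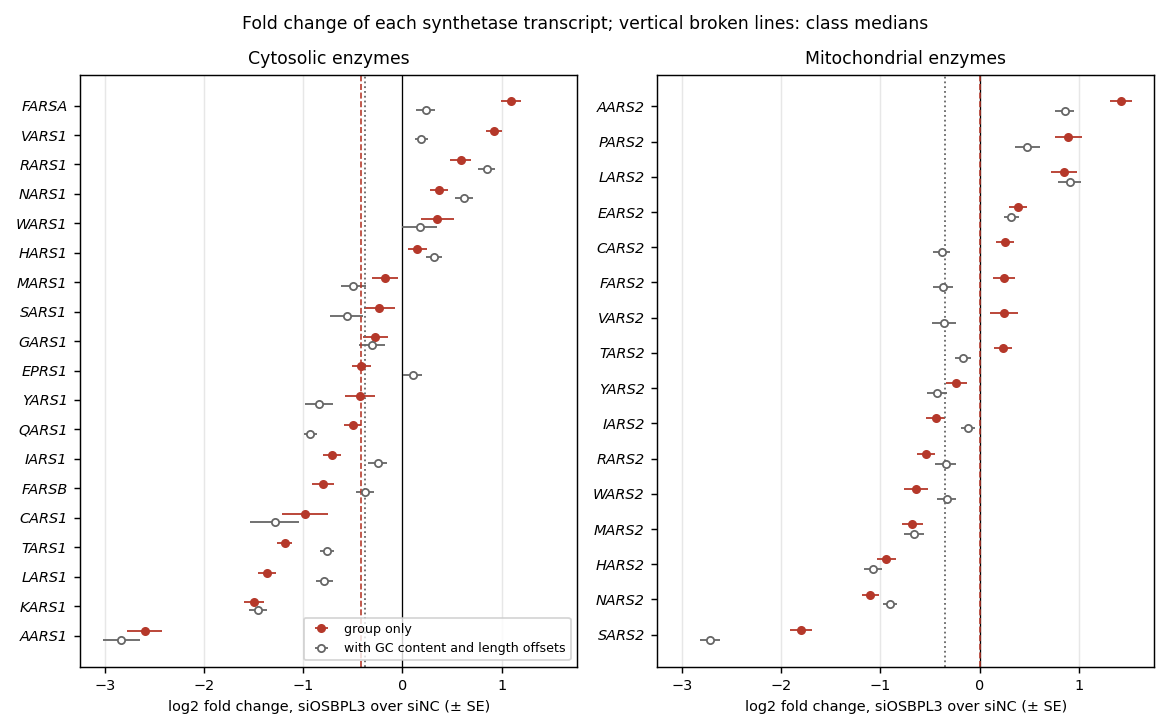
Log2 fold change, siOSBPL3 over siNC, of each synthetase transcript with its SE (bars), from the fit on group alone (filled red) and with offsets for GC content and transcript length (open grey). The dashed red and dotted grey vertical lines are the class medians of the 2 fits, at -0.42 and -0.38 for the cytosolic enzymes and at 0.00058 and -0.35 for the mitochondrial enzymes.

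Summed over each class, both sets took a smaller share of the counts in siOSBPL3. Cytosolic synthetase transcripts together took 0.466, 0.380 and 0.358% of all counts in siOSBPL3 and 0.602, 0.602 and 0.597% in siNC. Mitochondrial ones took 0.0646, 0.0676 and 0.0665% in siOSBPL3 and 0.0729, 0.0730 and 0.0735% in siNC. For both sums the highest siOSBPL3 library was below the lowest siNC library, and the siOSBPL3 libraries differed more among themselves in the cytosolic sum. Abundant transcripts weigh most in such sums, and 4 of 19 cytosolic and 6 of 16 mitochondrial genes rose. AARS1, KARS1 and TARS1 had means of 122, 267 and 319 CPM in siOSBPL3 and 735, 752 and 726 CPM in siNC. The mitochondrial sum was 618, 673 and 668 CPM in siOSBPL3 and 744, 740 and 744 CPM in siNC. IARS2 alone had means of 149 and 203 CPM. The median log2 difference of the class from its siNC mean was -0.054, -0.50 and -0.53 for the cytosolic genes in siOSBPL3 replicates 1, 2 and 3, and -0.17, -0.015 and -0.082 for the mitochondrial genes. Replicate 1 therefore had the smallest cytosolic and the largest mitochondrial shortfall.

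The gap between the class medians changed with the offsets for GC content and length. Transcripts richer in GC had higher log2 fold changes (Spearman 0.38 over 14435 genes of the same 6 libraries, and 0.40 over the 35 members), a description, since genes share libraries. The median GC content was 48.6% for the cytosolic genes and 51.2% for the mitochondrial genes. With offsets for GC content and length, fitted in each library, 12 of 19 cytosolic genes fell, 5 rose and 2 did not pass (median -0.38), and 10 of 16 mitochondrial genes fell, 4 rose and 2 did not pass (median -0.35). Genes that passed with the offsets and not in the fit on group alone were GARS1 (-0.31, adjusted p = 0.0481), MARS1 (-0.49, adjusted p = 0.00489), SARS1 (-0.56, adjusted p = 0.0116), YARS2 (-0.43, adjusted p = 0.00205), FARS2 (-0.37, adjusted p = 0.00679) and VARS2 (-0.36, 0.0177), all lower, and HARS1 (0.31, 0.00449), higher, by edgeR. Each of them also passed under at least 1 setting without the offsets, FARS2 and VARS2 there as higher. In that fit 38.6% of all genes fell and 39.6% rose. The class medians thus lay apart without the offsets and side by side with them, and no test over genes was made of either difference. In the fit on group alone, the class I enzymes (18 genes, 9 lower and 5 higher) had a median of -0.33. The class II enzymes (16 genes, 7 lower and 5 higher) had a median of -0.25. The shares lower and higher were 50% and 27.8% for class I and 43.8% and 31.2% for class II. Those of all genes were 39.8% and 40.4%.

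For 17 pairs of cytosolic and mitochondrial genes of the same amino acid, the ratio was taken within each library, which needs no scaling between libraries. EPRS1 was paired with EARS2 and with PARS2, and FARS2 with FARSA and with FARSB, so the pairs are not independent. The log2 ratio of AARS1 to AARS2 was 2.35, 1.73 and 1.69 in siOSBPL3 and 5.89, 6.12 and 5.95 in siNC, a difference of -4.06. For LARS1 to LARS2 it was 1.77, 0.98 and 1.25 in siOSBPL3 and 3.52, 3.54 and 3.55 in siNC, a difference of -2.20. In these pairs the cytosolic gene fell while the mitochondrial gene rose. The seryl pair moved the other way, with a log2 ratio of SARS1 to SARS2 of 5.11, 4.57 and 4.63 in siOSBPL3 and 3.42, 3.18 and 3.11 in siNC (1.53). So did the asparaginyl pair, NARS1 to NARS2, at 3.63, 3.39 and 3.42 in siOSBPL3 and 2.03, 2.00 and 2.02 in siNC (1.46).

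In all, the groups did not overlap for 14 pairs, 7 with a lower and 7 with a higher cytosolic share in siOSBPL3, and the median difference was -0.22. The share over ratios of other gene pairs was not computed, and for single genes it was 83.0% of all genes. Lower ratios were also found for TARS1 to TARS2 (-1.42), EPRS1 to PARS2 (-1.31), CARS1 to CARS2 (-1.30), FARSB to FARS2 (-1.06) and EPRS1 to EARS2 (-0.80). Higher ratios were found for the arginyl (1.12), histidyl (1.09), tryptophanyl (0.96) and valyl (0.69) pairs and for FARSA to FARS2 (0.84). The methionyl (0.49), isoleucyl (-0.27) and tyrosyl (-0.22) pairs overlapped between the groups. For each of the 14 pairs the exact two-sided permutation test over the libraries gave p = 0.1, the smallest that 3 against 3 allows, and 0.121 after adjustment over the 17 pairs, so none could pass 0.05. All 17 differences kept their sign with the offsets for GC content and length, but several moved by more than 1.5 times. That of FARSB to FARS2 was -0.013 with them, EPRS1 to EARS2 -0.22, EPRS1 to PARS2 -0.38, TARS1 to TARS2 -0.59, MARS1 to MARS2 0.17, WARS1 to WARS2 0.51, IARS1 to IARS2 -0.13 and YARS1 to YARS2 -0.41.

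**Figure D3:**
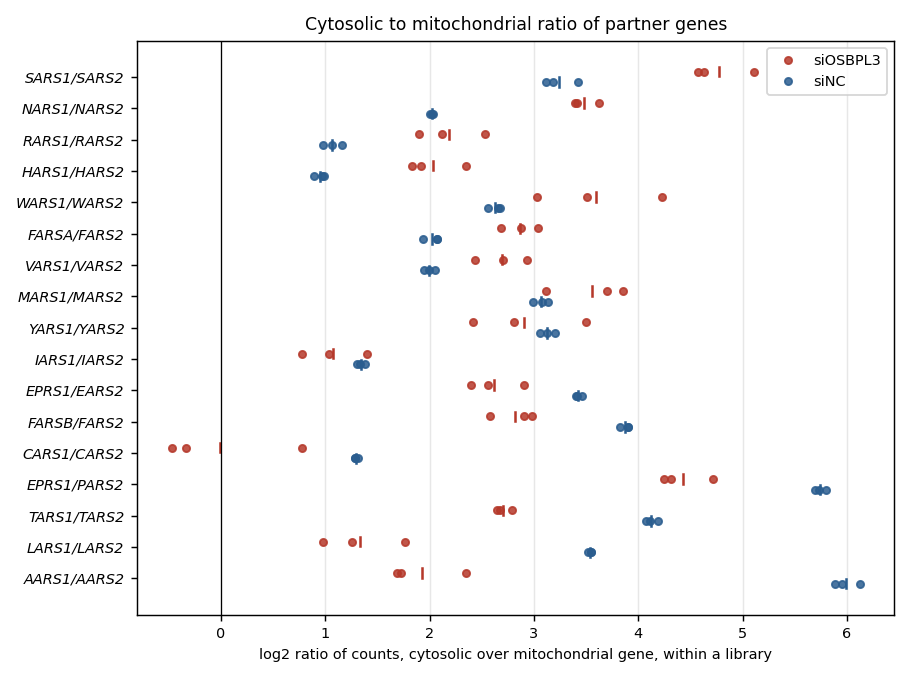
Log2 ratio of counts of the cytosolic over the mitochondrial gene within each library, for 17 partner pairs ordered by the difference between the groups. Points are the 3 siOSBPL3 (red) and 3 siNC (blue) libraries and short bars are group means. The seryl pair at the top is higher in siOSBPL3, the alanyl pair at the bottom differs by -4.06, and 3 pairs overlap.

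Per kilobase of the longest transcript, the order of the levels also differed between the groups. In siOSBPL3 the highest were SARS1 (139.6 ± 39.8 CPM per kb, SD, n = 3), GARS1 (136 ± 28.6), KARS1 (110.2 ± 16.1), NARS1 (91.8 ± 9.53) and MARS1 (88.0 ± 20.3), neighbours whose SDs overlap. In siNC the order was KARS1 (311 ± 2.94 CPM per kb, SD, n = 3), AARS1 (211 ± 0.950), TARS1 (168 ± 1.88), SARS1 (164 ± 6.31) and GARS1 (164 ± 1.32). KARS1 and AARS1 were apart from each other and from the next by more than their SDs, while TARS1 and SARS1, and SARS1 and GARS1, were not. AARS1 thus ranked 18 of 35 in siOSBPL3, at 34.9 ± 10.9 CPM per kb, and 2 of 35 in siNC. The lowest levels were those of SARS2 in siOSBPL3 (4.56 ± 0.356 CPM per kb) and of PARS2 in siNC (2.65 ± 0.0606). These orders depend on the length used. With the median transcript length the highest in siOSBPL3 were NARS1, TARS1 and WARS1, with SARS1 at rank 11, and in siNC TARS1, KARS1, MARS1 and NARS1. AARS1 then ranked 17 in siOSBPL3 and 5 in siNC, and PARS2 was the lowest in both groups.

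The siOSBPL3 libraries differed among themselves in the cytosolic enzymes, along with the genes of the integrated stress response. This pattern was noticed after the values were seen and is given as a description. The level in replicate 1 over the mean of replicates 2 and 3 exceeded 1.2 for 9 of 19 cytosolic genes (47.4%), for 1 of 16 mitochondrial genes (6.25%) and for 25 of 28 stress response genes (89.3%), beside 15.3% of all 11206 genes of at least 5 CPM. The minimum of 5 CPM was set on the mean over all 6 libraries, so a gene could pass through siNC alone. Among the 25 stress response genes, STC2 had 1, 1 and 0 counts in siOSBPL3. ALDH1L2 had 46, 8 and 14 counts there and ASNS 58, 12 and 38, so these ratios rest on few counts. The ratio was 1.87 for CARS1, 1.65 for AARS1, 1.63 for WARS1, 1.59 for SARS1, 1.54 for YARS1, 1.43 for MARS1 and 1.41 for GARS1. Not all cytosolic genes followed: FARSA, FARSB, HARS1, KARS1 and RARS1 were lower in replicate 1, with ratios of 0.761 to 0.815. Replicate 1 was the highest siOSBPL3 library for 6 of 6 cytosolic genes with CARE letters and for 5 of 10 without them, beside 31.1% of all genes. In siNC the same ratio ran from 0.883 to 1.10 over the 35 members, and none exceeded 1.2. The median coefficient of variation of the members was 12.0% in siOSBPL3 and 2.15% in siNC, beside 10.9% in siOSBPL3 and 4.01% in siNC for all genes of at least 5 CPM.

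**Figure D4:**
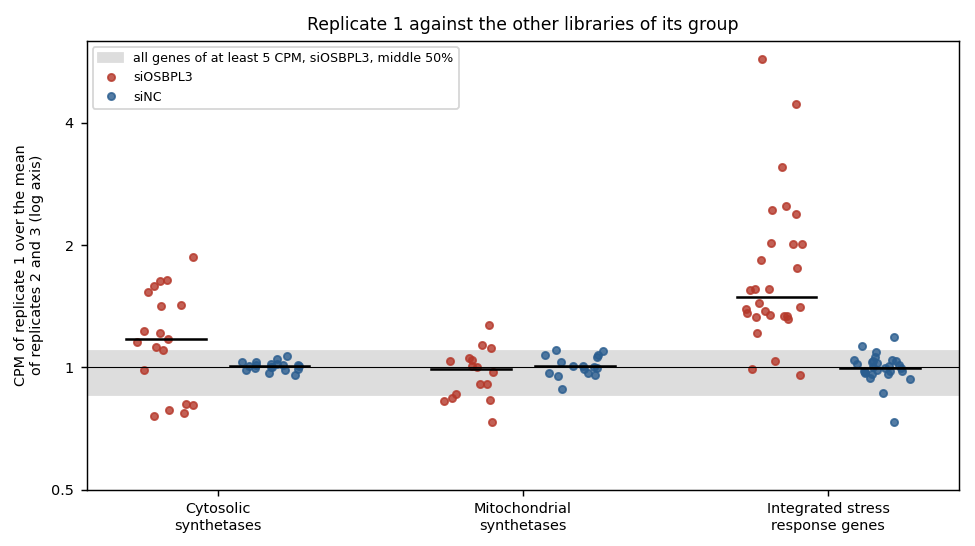
CPM of replicate 1 over the mean CPM of replicates 2 and 3 of its group (log axis), for each gene of 3 lists, in siOSBPL3 (red) and siNC (blue). Black bars are list medians and the grey band holds the middle 50% of all genes of at least 5 CPM in siOSBPL3. In siOSBPL3 the stress response genes and many cytosolic synthetases lie above the band, while in siNC the synthetases lie near 1.

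ATF4 stood at 960.1, 625 and 604 CPM in siOSBPL3 and at 871, 851 and 830.2 CPM in siNC (-0.22 ± 0.15, adjusted p = 0.18, edgeR). DDIT3, the stress-induced transcription factor CHOP, stood at 91.9, 38.5 and 36.6 CPM in siOSBPL3 and at 58.8, 54.0 and 53.4 CPM in siNC, and TRIB3, an inhibitory partner of ATF4, at 253, 131 and 119 CPM in siOSBPL3 and 149, 155 and 163 CPM in siNC. In all 3 genes replicate 1 of siOSBPL3 was above siNC and replicates 2 and 3 below it, the order also seen in GARS1, SARS1 and MARS1. ASNS, the asparagine synthetase gene and a classic CARE target, was instead lower in every siOSBPL3 library, at 1.61, 0.328 and 0.961 CPM against 13.5, 14.97 and 13.9 CPM in siNC (-3.87 ± 0.35). These 4 genes were chosen after their values were seen. OSBPL3 itself was also highest in replicate 1, at 40.2 CPM, and whether the level of knockdown bears on the synthetases was not tested. Without siOSBPL3 replicate 1, GARS1 (-0.45, adjusted p = 1.46e-06), SARS1 (-0.49, 2.47e-06) and MARS1 (-0.36, 0.000355) were called lower and HARS1 (0.25, 0.00325) and FARS2 (0.26, 0.0354) higher by edgeR. TARS2 was no longer called (0.18, 0.0539), and WARS1 was at 0.080, so its higher mean in siOSBPL3 rested mainly on that library. Among the cytosolic genes with CARE letters 4 of 6 fell and 1 rose (median -0.85, and -0.63 with the offsets), and among those without them 4 of 10 fell and 2 rose (median -0.25, and -0.10 with the offsets). Of all genes 39.8% fell and 40.4% rose, and the difference between these small sets was not tested.

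The stress response genes as a list went both ways between the groups. Of 28, 12 rose (42.9%), 9 fell (32.1%) and 7 did not pass, beside 40.4% higher and 39.8% lower of all genes. Their median was 0.26, and -0.15 with the offsets. Once siOSBPL3 replicate 1 was left out, 14 of the 28 were lower. Over all fits that left out 1 library, 5803 to 6553 genes were lower in all, where the fit on 6 libraries had 6179 of 15506. The share of all genes for the fit without that replicate is not given here, so no reading is drawn from the 14. NUPR1 (3.44 ± 0.90) and ATF5 (2.78 ± 0.10), stress-induced transcriptional regulators, rose most. STC2, a secreted glycoprotein, had 2 counts over the siOSBPL3 libraries and 4689 over the siNC libraries, a ratio of siNC to siOSBPL3 of 2750 with a 95% counting interval of 761 to 22711. ALDH1L2, a mitochondrial folate enzyme, fell (-5.26 ± 0.39). Without siOSBPL3 replicate 1 NUPR1 was at 2.08 and ALDH1L2 at -6.32. Leaving out 1 siNC library ended the call of NUPR1 in each case (edgeR adjusted p of 0.0611 to 0.0734). With the offsets ATF5 stood at 1.94, ALDH1L2 at -4.49, ATF4 at -0.86 and TRIB3 at -0.73. Of the kinases that phosphorylate eIF2 and their regulators, EIF2AK1 (0.34 ± 0.088) and EIF2AK2 (0.26 ± 0.083) rose, IMPACT (-0.86 ± 0.082) and EIF2AK3 (-0.41 ± 0.15) fell, and 2 of 6 did not pass. The share was 33.3% each way, under the 40.4% higher and 39.8% lower of all genes. EIF2AK3 lost its call when siOSBPL3 replicate 1 or 2 or siNC replicate 1 or 2 was left out (edgeR adjusted p of 0.0541 to 0.0848), and EIF2AK2 when siNC replicate 1 was (0.0503). With the offsets EIF2AK2 was at 1.33, IMPACT at -0.22 and EIF2AK3 at 0.0065, and 3 of the 6 rose and 1 fell. In that fit 39.6% of all genes rose and 38.6% fell.

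Genes of the interferon gamma response, the setting in which WARS1 is known to be induced, rose in 6 of 7 cases with a median of 2.63. That share, 85.7%, stands beside the 40.4% of all genes that rose. CXCL10 (9.21 ± 1.12), a chemokine, and GBP1 (6.29 ± 0.40), a guanylate-binding GTPase, rose most, and GBP2 fell (-3.32 ± 0.17). In siNC CXCL10 had 4, 4 and 8 counts and GBP1 1, 7 and 2, so the size of these rises rests on few counts. CXCL10 also differed within siOSBPL3, at 29.7, 126 and 147 CPM. Without siNC replicate 2 GBP1 was at 7.36. WARS1 itself was at 0.35 and not called.

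**Figure D5:**
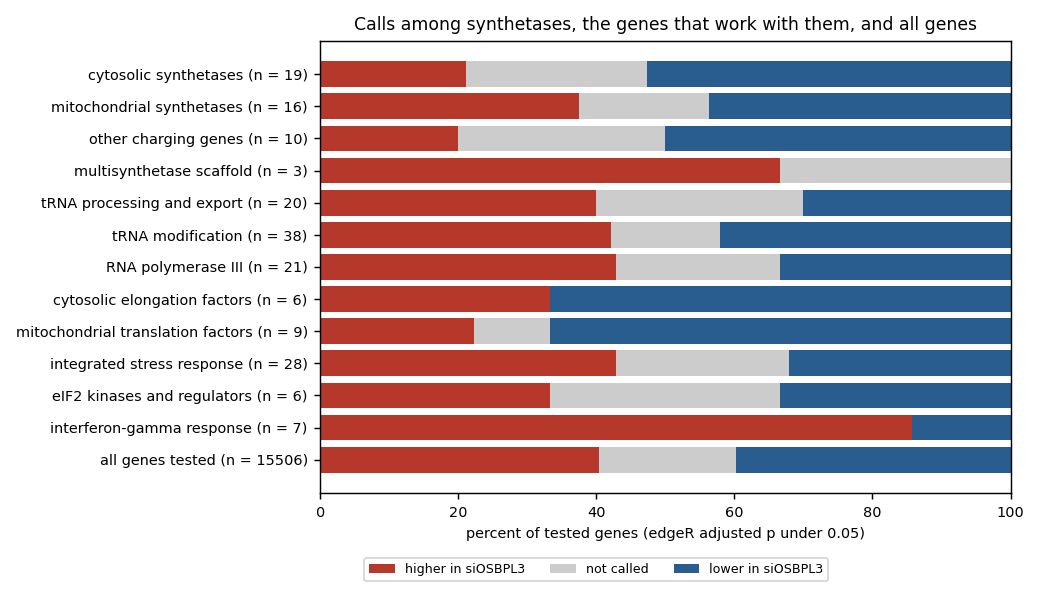
Percent of the tested genes of each list that were called higher (red, left), not called (grey) or called lower (blue, right) in siOSBPL3 at an edgeR adjusted p under 0.05. The cytosolic synthetases have 52.6% lower and 21.1% higher, beside 39.8% and 40.4% of all genes in the bottom bar.

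Other genes that charge or prepare tRNA moved in both directions. Of the 10 other charging genes tested, 5 fell (50%) and 2 rose (20%), beside 39.8% lower and 40.4% higher of all genes. SEPSECS (-1.69 ± 0.20), which makes selenocysteinyl-tRNA, and QRSL1 (-0.59 ± 0.088), a subunit of the mitochondrial glutaminyl-tRNA amidotransferase, fell, and DTD1 (0.66 ± 0.077), a D-aminoacyl-tRNA deacylase, and PSTK (0.44 ± 0.17), the kinase ahead of SEPSECS, rose. With the offsets 1 of the 10 fell and 3 rose, beside 38.6% lower and 39.6% higher of all genes. SEPSECS was then at -0.84, and QRSL1 (-0.036) and PSTK (0.19) were not called. PSTK also lost its call when siOSBPL3 replicate 3 or 1 siNC library was left out (edgeR adjusted p of 0.0594 to 0.112). Of 20 tRNA processing and export genes 8 rose (40%) and 6 fell (30%), with the same shares of all genes beside them. TSEN34 (1.53 ± 0.084) and TSEN15 (-2.03 ± 0.11), subunits of the tRNA splicing endonuclease, went opposite ways, RPP40 (1.12 ± 0.12), of ribonuclease P, rose, and the tRNA exporter gene XPOT fell (-0.77 ± 0.12, but -0.016 with the offsets).

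Of 38 tRNA modification genes 16 rose and 16 fell (median -0.084), 42.1% each way, beside 40.4% higher and 39.8% lower of all genes. With the offsets 11 rose and 18 fell, beside 39.6% higher and 38.6% lower of all genes. METTL1 (2.10 ± 0.14), the tRNA guanosine methyltransferase, and CTU1 (1.47 ± 0.15, but 0.091 with the offsets), of tRNA uridine thiolation, rose. CDKAL1 (-2.92 ± 0.10), a tRNA adenosine methylthiotransferase, and TRDMT1 (-1.94 ± 0.15), a tRNA cytosine methyltransferase, fell. With the offsets METTL1 stood at 1.44 and TRDMT1 at -1.25. Of 21 genes of RNA polymerase III and its factors, which transcribe the tRNA genes, 9 rose (42.9%) and 7 fell (33.3%), with a median of -0.0061. GTF3C6 (1.65 ± 0.12), a subunit of transcription factor IIIC, rose, and BDP1 (-1.93 ± 0.11) and POLR3G (-1.60 ± 0.090) fell most, to -0.82 for BDP1 and -0.85 for POLR3G with the offsets. tRNAs themselves were not analysed here.

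Of the factors that carry charged tRNA through elongation in the cytosol, 4 of 6 fell (66.7%) and 2 rose (33.3%), with a median of -0.53. Of all genes 39.8% fell and 40.4% rose. With the offsets 5 of these factors fell and 1 rose, beside 38.6% lower and 39.6% higher of all genes. EEF1G (-1.65 ± 0.083) and EEF1B2 (-0.83 ± 0.082), subunits of the exchange factor for eEF1A, fell most. EEF1A2 (2.46 ± 0.10), the tissue-restricted form of eEF1A, rose, and EEF1D rose (0.64 ± 0.078), though it stood at -0.34 with the offsets, where EEF1A2 was at 1.19 and EEF1G at -2.26. Of 9 mitochondrial translation factors 6 fell (66.7%) and 2 rose (22.2%), with a median of -0.45. With the offsets 4 of the 9 fell and 3 rose (median -0.15). MTRF1L (-1.50 ± 0.11), a release factor, and GFM2 (-1.29 ± 0.081), of ribosome recycling, fell most, and the initiation factor gene MTIF3 (0.98 ± 0.089) and the elongation factor gene TSFM (0.72 ± 0.092) rose.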

How the data were processed

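Gene-level counts were deposited by the authors for 3 siOSBPL3 and 3 siNC libraries. Reads were aligned with HISAT2 2.2.1 to GRCh38 and counted with HTSeq 0.13.5, per the submitters' processing notes. Library preparation from total RNA was described in the labels' protocols, and the strand setting, counting mode and annotation are not given in the sources used here. Reads of genes that share exons, on either strand, therefore cannot be told apart.

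From these counts, edgeR 4.0.16 in R 4.3.3 kept genes by filterByExpr (minimum count 10, minimum total 15), scaled by TMM and fitted group alone. The robust quasi-likelihood test was two-sided, and p-values were adjusted over all 15506 genes by Benjamini-Hochberg (threshold 0.05). CPM are TMM-scaled. Partner ratios used log2 of counts plus 0.5 within a library and an exact permutation test. Transcript length and GC content came from the longest protein-coding transcript of GENCODE 29, known for 93.1% of tested genes and all 35 members, and offsets came from a smooth fit per library on genes of at least 5 CPM (mgcv 1.9.3). Positions and promoter sequences came from RefSeq on GRCh38.p14. The scripts were tested on simulated data.

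The members and gene lists were chosen with earlier results of these data known. All members, OSBPL3 and scaffold genes were named, and from each other list the 2 largest rises and 2 largest falls among called genes, except for some genes that are not reported here. Marker genes, genes with shared exons and the genes said so in the text were named after their values were seen. Alternatives were RLE factors, library totals, DESeq2 1.42.0, limma-voom (limma 3.58.1), a threshold of 0.01, no filter or one at a mean of 5 CPM, the offsets, a replicate block, leaving out each library and the median transcript length. Counting intervals cover counting error only.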

Additional observations from a re-analysis of the deposited data

How the results depend on the processing

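Of the 27 members called, 21 kept their direction and their side of the threshold in all 15 settings tried for single genes. With the offsets for GC content and length 5 members turned, EPRS1 to 0.10, CARS2 to -0.38, FARS2 to -0.37, TARS2 to -0.17 and VARS2 to -0.36, and the median log2 fold change of the mitochondrial members moved to -0.35. With the replicate block and the offsets together these values were 0.093, -0.39, -0.37, -0.17, -0.37 and -0.36. The difference in the YARS1/YARS2 log2 ratio turned to 0.024 without siOSBPL3 replicate 3. The cause was not tested. YARS1 lost its call with library totals, with no filter, and without siOSBPL3 replicate 2, siOSBPL3 replicate 3 or any of the siNC libraries (adjusted p of 0.0552 to 0.1). CARS1 lost it with no filter (0.0506), CARS2 without siOSBPL3 replicate 2 or any siNC library (0.0562 to 0.0855), TARS2 without siOSBPL3 replicate 1 or any siNC library (0.0539 to 0.12). Calls were gained without siOSBPL3 replicate 3 by WARS1 (0.51, adjusted p = 0.0124), VARS2 (0.40, 0.00447) and YARS2 (-0.33, 0.0102), all by edgeR.

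Over all alternatives 8 to 12 members were higher and 15 to 22 lower, 4 to 5 and 8 to 13 of them cytosolic and 4 to 7 and 7 to 10 mitochondrial. The cytosolic median ran from -0.52 to -0.28 and OSBPL3 from -3.68 to -2.23. From 4724 to 6605 genes were higher and 4672 to 6553 lower in all. Same-numbered libraries showed no shared deviation: their deviations from the group means had correlations of -0.0066 to -0.0033 across genes. Whether they were prepared together is not given in the sources used here, and these correlations cannot tell. A fit with the replicate block called 11 members higher and 19 lower and gave OSBPL3 -3.16 (adjusted p = 0.0241), with no lost call among the members and calls gained by GARS1 (-0.29, 0.00926), SARS1 (-0.27, 0.0218) and WARS1 (0.31, 0.0115). The share of all genes called in that fit is not given here, and in the fit on group alone it was 80.2%. Depth limited few values: the lowest count of a member in any library was 189, for PARS2 in siNC.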

Other observations

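Several synthetase genes share annotated exonic bases with a neighbour, and these neighbours had values of their own. TERF2IP, a telomere protein gene that shares 4.3% of the exonic bases of KARS1 on the opposite strand, fell with it, at 70.7, 73.9 and 89.8 CPM in siOSBPL3 and 170.0, 162 and 167 CPM in siNC (-1.09 ± 0.099, adjusted p = 6.07e-07, edgeR). ZMAT2, which shares 4.1% of those of HARS2 on the same strand, fell as well, at 51.3, 47.3 and 50.2 CPM in siOSBPL3 and 108, 105 and 113 CPM in siNC (-1.13 ± 0.079), while WDR55, which shares 2.8% of those of HARS1, was not called (-0.018 ± 0.081, adjusted p = 0.842, edgeR). WDR25, opposite WARS1 with 4.5% of its exonic bases, rose, at 15.8, 13.2 and 13.02 CPM in siOSBPL3 and 6.58, 5.81 and 6.64 CPM in siNC (1.14 ± 0.14). DDIT3 shares 5.1% of the exonic bases of MARS1 on the opposite strand, and both were highest in siOSBPL3 replicate 1. How many reads were counted for each gene of these pairs cannot be told apart without the strand setting.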
